A study of Mus musculus with 3 samples.

Results

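The PI3K, AKT and mTOR pathway with its nutrient sensors was examined in mouse regulatory T cells (Tregs) through 46 named genes, taken as the rows of the gene tables whose GENCODE M21 gene name was on a fixed list. All 46 were found among the 55536 annotated genes of the tables. By their textbook roles 25 were grouped as activators of growth signalling and 21 as brakes. The data are polyA plus RNA-seq of 1 group with 3 libraries, numbered 1, 2 and 3 as technical replicates of a single biological replicate and drawn from 1 donor animal. Many genes differed between these libraries by more than counting, and the labels used here do not say whether they were separate cell preparations. Each ± is the SD between them (n = 3), which does not measure variation between animals. The cells came from a male adult mouse aged 16 weeks of the strain Foxp3GFP-DTRCD4CreERT2R26tdTomato and are described as Tregs that had experienced inflammation. The strain name joins a GFP and diphtheria toxin receptor at Foxp3, a Cre recombinase that tamoxifen activates under Cd4, and a tdTomato reporter at the Rosa26 locus, and every library carries all of these. The tissue they were taken from, the inflammation and the sort are not given in the labels used here, and no comparison with uninflamed cells was made. In bulk RNA, fewer cells of a type and less RNA per cell cannot be told apart.

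PI3K adds a phosphate to a membrane lipid when the T cell receptor, CD28 or the interleukin 2 receptor is engaged. The lipid recruits PDK1 and AKT, and AKT inactivates the TSC complex, which otherwise keeps the small GTPase Rheb off. On the lysosome, Rag GTPases held by the Ragulator complex bring the kinase complex mTORC1 to Rheb when amino acids are present, while GATOR1, sestrins and AMPK oppose this when nutrients or energy are short. Tregs are known to depend on a balance here: mTORC1 is needed for their suppressive function, and strong PI3K and AKT signalling weakens their stability.

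Depth was 17494800 to 20942759 expected counts on annotated genes per library. Among the cell type markers, all 6 T cell genes, Cd3e and Cd4 among them, were detected, with a summed level of 7487 to 8658 TPM (TPM is a level scaled for transcript length and depth). All 6 Treg genes were detected too, summing to 2229 to 2760 TPM, with Foxp3 at 77.6, 86.2 and 59.2 TPM and Il2ra at 302, 276 and 275 TPM. Of other cell types, 6 of 7 B cell genes (1376 to 1777 TPM summed, mostly Ighm), 5 of 5 erythroid genes (1097 to 1750 TPM, Hbb-bs highest by mean) and 5 of 5 macrophage genes (33.3 to 45.3 TPM, Csf1r highest by mean) reached 1 TPM in each library. For CD8 T cells 1 of 2 did (16.7 to 22.3 TPM, Cd8b1), for NK cells 1 of 3 (3.59 to 7.93 TPM, Klrb1c) and for granulocytes 0 of 4 (0.09 to 2.83 TPM), with S100a8 and S100a9 at 0 in libraries 1 and 3. Several genes described here are also active in B and myeloid cells, and the part of such cells in their levels was not tested.

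Nearly all of the listed genes were expressed, in a list chosen with earlier results of these data known. Of the 46 genes, 45 reached 1 TPM in every library, against 47.4% of all protein-coding genes, and the exception was the mTOR inhibitor gene Deptor. Their median was 47.7, 49.4 and 33.8 TPM in libraries 1, 2 and 3, against 27.8, 27.2 and 21.8 TPM for the 10436 protein-coding genes that reached 1 TPM in each. Mean levels ran from 0.45 TPM for Deptor to 644 TPM for Inpp4b. There were 8 genes over 100 TPM: Pik3cd, Lamtor1, Lamtor2 and Lamtor5 among the activators, and Inpp4b, Inpp5d, Sesn1 and Prkag1 among the brakes. Another 30 lay between 10 and 100 TPM. Of 59 other genes of the pathway, described below, 49 reached 1 TPM in each library, so the share for the 46 does not stand for the whole pathway.

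**Figure D1:**
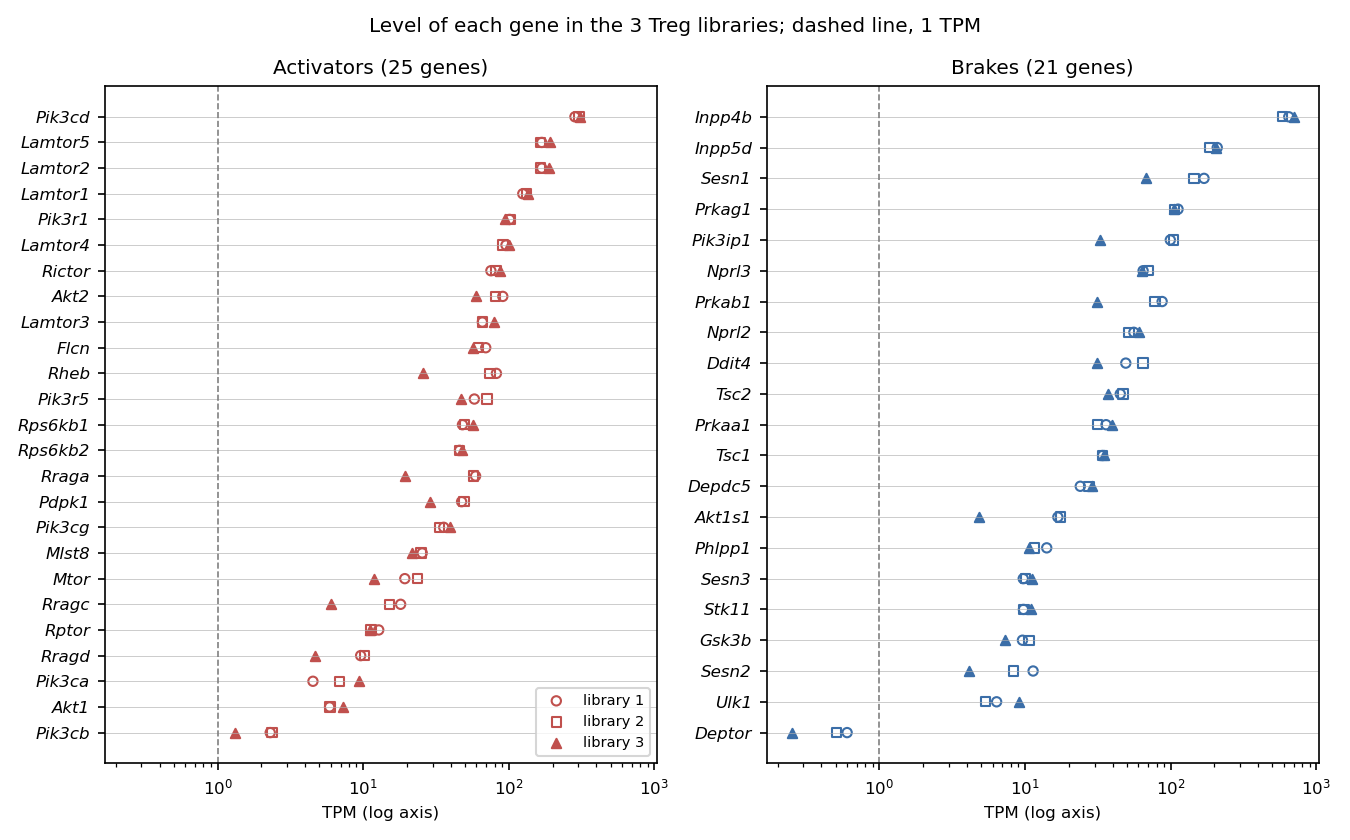
Level of the 25 activators (left) and 21 brakes (right) in TPM on a log axis, 1 marker per library, ordered by mean. Inpp4b stands highest at 644 TPM and Deptor lowest at 0.45 TPM, and for Rheb, Rraga, Pik3ip1, Prkab1, Sesn1 and Akt1s1 library 3 (filled triangle) lies well below the other libraries.

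Class I PI3K was dominated by a single catalytic subunit. Pik3cd, which encodes the delta subunit of leukocytes (chromosome 4, 149649168 to 149702571, minus strand, mm10), was measured at 285, 304 and 309 TPM. It held 86.9 ± 0.79% of the summed TPM of the 4 catalytic genes and rank 460 among protein-coding genes. Pik3cg, the gamma subunit that G protein-coupled receptors activate, stood at 35.8, 33.4 and 39.3 TPM, a share of 10.5 ± 0.75%. The ubiquitous subunits were near the bottom: Pik3ca, the alpha subunit, was at 4.52, 6.91 and 9.31 TPM, and Pik3cb, the beta subunit, at 2.30, 2.37 and 1.31 TPM from 159, 152 and 67 counts. Pik3cd and Pik3cg levels were close in all 3 libraries, whereas Pik3ca was lowest in library 1 and Pik3cb in library 3. Over protein-coding transcripts alone Pik3ca was at 4.23, 5.01 and 5.31 TPM, a narrower range. Pik3cb was then at 0.51, 0.59 and 0.62 TPM and no longer lowest in library 3. Within each library Pik3cd exceeded Pik3cg by 3.02 ± 0.11 on the log2(TPM + 1) scale, Pik3ca by 5.29 ± 0.39 and Pik3cb by 6.67 ± 0.35. Related genes were called different where their log2 ratio was larger than 1 and than 2 SD, with the same sign in each of the 3 libraries. With 3 libraries no exact test can reach p = 0.05, so pairs carry no p.

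The regulatory partners of PI3K were measured at lower levels than Pik3cd. Pik3r1, whose products (p85 alpha and its short forms) stabilise and restrain the class IA subunits, was at 101, 103 and 93.9 TPM, below Pik3cd by 1.58 ± 0.12 (log2 ratio of Pik3r1 to Pik3cd, -1.58). It held 81.7 ± 7.44% of the class IA regulatory genes, beside Pik3r2 at 15.2 ± 7.29% and Pik3r3 at 3.06 ± 0.19%. Pik3r2 and Pik3r3, like the other relatives used to complete a family, are not among the 46 genes and were picked after their values were seen. Pik3r5, the adaptor that couples the gamma subunit to G proteins, was at 58.0, 71.0 and 46.7 TPM and was not called different from Pik3cg (0.66 ± 0.41).

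Brakes at the lipid step included the most abundant transcript of the set. Inpp4b, a lipid phosphatase that removes a 4-phosphate (chromosome 8, 81342556 to 82127914, plus strand), was measured at 647, 583 and 700 TPM, rank 174 among protein-coding genes. Inpp5d, which encodes the haematopoietic phosphatase SHIP1, was at 209, 187 and 203 TPM, rank 761, and lay below Inpp4b by a log2 ratio of -1.68 ± 0.08. Their spread was small, with a coefficient of variation of 9.06% for Inpp4b and 5.80% for Inpp5d. Pik3ip1, a membrane protein that binds and inhibits the PI3K catalytic subunit in T cells, was at 99.5, 104 and 32.8 TPM, from 2558, 2426 and 790 counts, so library 3 held 33.6% of the level of the others.

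Reads of Inpp4b lay mostly on transcripts that start far inside the gene. Inpp4b-209, a coding transcript of 8067 bases that starts 398750 bases from the gene's first annotated start, took 46.7 ± 1.97% of the gene's expected counts. Inpp4b-208, of 2108 bases and starting 430557 bases in, took 25.6 ± 0.29%. Inpp4b-212, which starts 6 bases from the gene's first annotated start, took 10.5 ± 1.63%. Inpp4b-209 and Inpp4b-212 are annotated with the same coding length of 2781 bases, and Inpp4b-208 with 1899. Because TPM divides by length, short noncoding fragments such as Inpp4b-213 (412 bases) carried 23.5 ± 2.46% of the gene's TPM on 3.39 ± 0.49% of its counts. Protein-coding transcripts alone gave Inpp4b 354 ± 35.3 TPM, still above the 275 ± 6.72 TPM of Pik3cd counted in that way. Pik3cd also had its leading transcript, Pik3cd-214, at an internal start, 28377 bases from the gene's first one, with 38.6 ± 3.52% of counts, beside Pik3cd-206 (27.5 ± 3.31%) and Pik3cd-201 (25.1 ± 1.25%), which start 981 and 3873 bases in.

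Of the AKT kinase genes on the list, Akt2 was far above Akt1. Akt2 (chromosome 7, 27591552 to 27640826, plus strand) was measured at 90.9, 80.9 and 59.3 TPM. Akt1, the isoform most cells express highly, stood at only 5.88, 5.92 and 7.29 TPM from 180, 183 and 199 counts. The log2 ratio of Akt1 to Akt2 was -3.39 ± 0.46. Pdpk1, which encodes PDK1, the kinase that switches AKT on, was at 47.4, 49.1 and 28.8 TPM, lowest in library 3 as Akt2 was. Phlpp1, a phosphatase that removes an activating phosphate from AKT, was at 14.1, 11.6 and 10.7 TPM, and Gsk3b, a kinase that AKT inactivates, at 9.60, 10.6 and 7.26 TPM.

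The genes of the TSC complex differed little between libraries, and that of its target Rheb differed more. Tsc1, the scaffold subunit, was at 34.1, 33.9 and 34.8 TPM, and Tsc2, the subunit that switches Rheb off, at 45.1, 47.2 and 37.2 TPM, a pair that was not called different (-0.32 ± 0.20). Over protein-coding transcripts alone Tsc1 fell to 4.12 ± 1.41 TPM against 34.3 ± 1.77 TPM for Tsc2, and the pair was then called, at -2.83 ± 0.49. Tbc1d7, the complex's small subunit and not among the 46, was lower at 12.5, 17.4 and 13.2 TPM. Rheb itself (chromosome 5, 24802823 to 24842624, minus strand), the GTPase that activates mTORC1, was at 82.3, 74.4 and 25.8 TPM, from 1255, 1209 and 466 counts. Library 3 thus stood at 40.1% of the mean of the others, against 112% for Tsc1 and 89.0% for Tsc2.

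Among the subunits of the mTOR complexes, Rictor was far above Rptor. The kinase Mtor was at 19.3, 23.6 and 11.8 TPM and Mlst8, the subunit that both complexes share, at 25.4, 24.9 and 21.5 TPM, which were not called different (0.42 ± 0.37). Rictor, which defines mTORC2, was at 75.4, 81.5 and 87.4 TPM (chromosome 15, 6708379 to 6800401), and Rptor, which defines mTORC1, at 12.8, 11.3 and 11.2 TPM (chromosome 11, 119602905 to 119899576). The groups of values did not overlap, and the log2 ratio of Rptor to Rictor was -2.69 ± 0.20. Most of either gene was assigned to transcripts not annotated as coding for the protein. Only 12.1 ± 0.84% of the TPM of Rictor fell on coding Rictor-201, and 43.7 ± 2.55% fell on Rictor-204, a retained intron transcript of 3879 bases. Rptor had 60.5 ± 2.80% on Rptor-211 (6138 bases, annotated as subject to nonsense-mediated decay) and 5.37 ± 6.55% on coding Rptor-201. On coding transcripts alone Rictor was at 8.47, 10.5 and 10.5 TPM and Rptor at 1.62, 0.39 and 0 TPM, and the ratio kept its direction and its call (-2.81 ± 0.86).

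Inhibitors bound to mTOR differed from each other. Akt1s1, which encodes PRAS40, an inhibitor of mTORC1 that AKT releases, was at 16.8, 17.5 and 4.80 TPM, so library 3 held 33.0% of the mean of the others. Deptor, which inhibits both complexes, was at 0.60, 0.51 and 0.25 TPM on 25, 15 and 11 counts, below Akt1s1 by a log2 ratio of 3.10 ± 0.77. At that depth a difference of Deptor between libraries was not detectable (adjusted p = 0.157 by the chi-square test used to compare libraries, after Benjamini-Hochberg adjustment). Downstream of mTORC1, the S6 kinase genes Rps6kb1 (48.1, 49.7 and 57.0 TPM) and Rps6kb2 (45.9, 45.9 and 47.6 TPM) held 52.5 ± 1.75% and 47.5 ± 1.75% of their sum and were not called different (0.14 ± 0.10). Counts of Rps6kb2 went another way than its TPM, at 1439, 1368 and 1086, with library 3 at 82.0% of the mean of the others. Over protein-coding transcripts alone Rps6kb1 was at 14.8, 14.3 and 19.9 TPM and Rps6kb2 at 11.7, 11.8 and 5.36 TPM. The pair was not called there either (0.76 ± 0.82). On its leading coding transcript Rps6kb2 shares 26.7% of exonic bases with Coro1b and Ptprcap on the opposite strand, which stood at 358 ± 38.7 and 1164 ± 316 TPM. Whether the counting used strand is not stated in the sources, so the level of Rps6kb2 is uncertain. Overlap with an opposite gene was also over 10% for Mlst8 (30.9%, Bricd5 at 0.11 TPM), Stk11 (15.3%, Cbarp at 2.62 TPM) and Rragc (10.2%, with 4930535I16Rik listed at 0). It was so too for Prkag1 and Nprl3, described below. Expected counts were whole for Rragc and not for Rps6kb2, Mlst8, Stk11, Prkag1 and Nprl3, so some reads of these were divided with other genes. They were also not whole for some genes without such overlap, as Pik3cb, and the genes that shared the reads were not identified. Ulk1, the kinase that starts autophagy and that mTORC1 restrains, was at 6.38, 5.33 and 9.13 TPM.

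**Figure D2:**
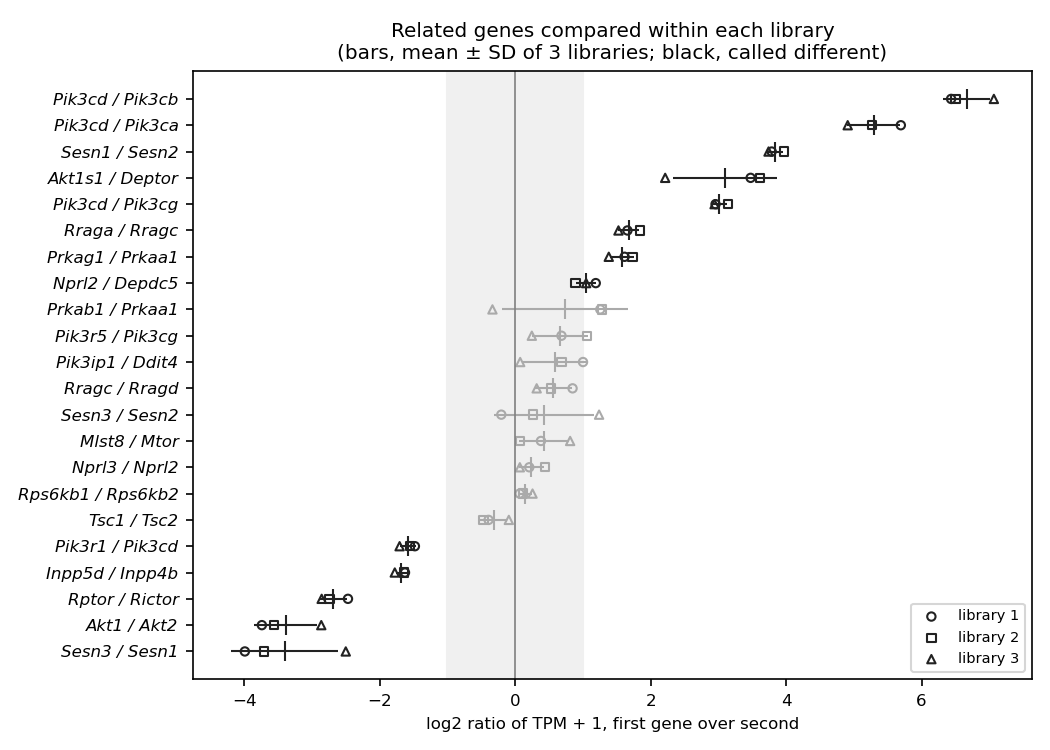
The log2 ratio of TPM + 1 in each library for 22 pairs of related genes, with the mean and SD of 3 libraries, the grey band marking ratios within 1. The 13 pairs in black were called different, led by Pik3cd over Pik3cb and Pik3ca, and 9 pairs in grey were not, among them Rps6kb1 and Rps6kb2, and Tsc1 and Tsc2.

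At the lysosome, library 3 was low for the 3 Rag genes on the list and not for the 5 Ragulator genes. Over all transcripts the highest of the 5 Ragulator genes, which encode the complex that anchors Rag GTPases there, was 2.49 ± 0.07 times the lowest. Over protein-coding transcripts the ratio was 15.3 ± 4.65, since Lamtor4 then stood at 12.5 ± 5.43 TPM. Lamtor1, the subunit that holds the complex on the membrane, was at 125, 133 and 135 TPM, Lamtor2 at 168, 164 and 189 TPM, and Lamtor3, its partner, at 65.8, 66.3 and 79.7 TPM. Lamtor4 was at 95.7, 91.1 and 101 TPM and Lamtor5 at 168, 165 and 193 TPM. Each of the 5 was highest in library 3, at 106% to 118% of the mean of the others after scaling of counts, although Lamtor4 did not pass the test between libraries. The Rag genes went the other way. Rraga, the main partner of the A or B type (chromosome 4, 86575668 to 86577285), was at 59.2, 57.1 and 19.3 TPM, Rragc at 18.1, 15.2 and 6.05 TPM, and Rragd at 9.61, 10.2 and 4.66 TPM. Library 3 was the lowest for each, as it was for 39.4% of all genes tested. Each passed the test between libraries with library 3 at least 1.5-fold lower, against 20.5% of all genes tested. The Ragulator genes summed to 623, 619 and 697 TPM in libraries 1, 2 and 3, and these 3 Rag genes to 86.9, 82.5 and 29.99 TPM. Rragb, the relative of Rraga outside the list, was at 10.7, 11.2 and 8.62 TPM and did not pass the test between libraries (adjusted p = 0.643 by the chi-square test with Benjamini-Hochberg adjustment). Local GC content (the highest GC percent in any 200-base window of the most abundant transcript) was 72% to 76.5% in Rraga, Rragc and Rragd and 57.5% to 68.5% in the Ragulator genes, and its part in this difference was not tested beyond removal of its trend, after which library 3 was lower by a log2 of -0.85 for Rraga, -0.65 for Rragc and -0.13 for Rragd.

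Rraga exceeded Rragc by 1.67 ± 0.16 (log2), and Rragc and Rragd were not called different (0.56 ± 0.27). With Rragb included, Rraga held 57.2 ± 6.26% of the 4 Rag genes. Flcn, the activator that lets RagC and RagD take their active form, was at 69.5, 61.8 and 56.8 TPM. Lamtor4 was assigned mostly to Lamtor4-202, a processed transcript of 980 bases with no annotated coding sequence (87.1 ± 4.93% of TPM), and only 12.9 ± 4.93% to coding Lamtor4-201.

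The lysosomal genes are known targets of TFEB and TFE3, factors that bind the E-box CACGTG, so this motif was looked for in promoter windows, 250 bases before to 50 after a start, from RefSeq on GRCm38.p6. A window was matched for 43 of the 46 genes, as the one nearest to the leading transcript. For some the nearest start was not that of the leading transcript: it lay farthest away for Inpp4b (398744 bases), Stk11 (9580), Pik3cd (1895) and Akt1s1 (1148). Smaller distances included 866 bases for Depdc5, 793 for Rptor and 606 for Pik3ca. CACGTG, which reads the same on both strands, was present in 4 of the 43 (9.30%), against 7.24% of 27025 promoters with 1 per gene. The 4 genes were Rheb, Lamtor1, Lamtor4 with a pair of sites, and Rragc. The stretches are shown so that the flanks can be compared, 5′ to 3′ on the gene's strand, with the E-box in capitals.
Rheb, chr5:24842440-24842469: gccgcgcgcggtCACGTGggtgtgttgttg
Lamtor1, chr7:101905757-101905786: ctgccttcctatCACGTGccgcgggtccgc
Lamtor4, chr5:138255350-138255379: gcagaaagttaaCACGTGaacagcttttca
Lamtor4, chr5:138255366-138255395: tgaacagcttttCACGTGtaaaccaaacca
Rragc, chr4:123917309-123917338: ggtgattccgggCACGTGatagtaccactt
The E-boxes lie 96, 68, 120, 104 and 112 bases before the RefSeq start. The RefSeq start of Rheb is 263 bases downstream of the GENCODE start of Rheb-201, so its E-box lies downstream of that GENCODE start. Lamtor4-202, the leading transcript of Lamtor4, starts 349 bases downstream of the RefSeq start, so both E-boxes of Lamtor4 lie farther from the start of that transcript. Genes with the motif included 2 that were low in library 3 (Rheb and Rragc) and 2 that were not. The 10-base CLEAR element, an extended E-box that 0.359% of all promoters hold, was in none of the 43 windows. Of the other motifs searched on both strands, CCAAT was in 19 of 43 windows (44.2%, against 37.9% of all promoters) and the GC box GGGCGG in 25 (58.1% against 35.9%). The FOXO core GTAAACA was in 1 window, that of Stk11 (2.33% against 3.55%). TGATGCAA of ATF4, TTTGGCGC of E2F and the NRF1 core were in none, against 0.929%, 0.537% and 0.977% of all promoters. A match is only a match of letters. The members' windows had a median GC content of 62.7%, against 52.7% for all promoters.

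Of the listed genes that act upstream of the Rag GTPases, all 3 GATOR1 genes were expressed and 1 sestrin led its family. Amino acid sensing itself was not measured. Depdc5, the GATOR1 subunit that binds the Rag proteins, was at 24.0, 27.5 and 28.9 TPM, Nprl2 at 55.9, 51.8 and 60.8 TPM, and Nprl3 at 64.7, 70.6 and 63.8 TPM, with values of Depdc5 below those of both partners in each library. Nprl2 exceeded Depdc5 by 1.04 ± 0.15, a call that was lost over coding transcripts (0.99), with a pseudocount of 5 (0.94) and without library 1 (0.97). Nprl3 and Nprl2 were not called different (0.24 ± 0.19). The gene body of Nprl3 lies beside the alpha globin genes, whose transcripts were present here, and its leading coding transcript shares 25.8% of exonic bases with Mpg on the opposite strand (30.8 ± 7.50 TPM). The erythroid sum was 1389, 1097 and 1750 TPM in libraries 1, 2 and 3, in another order than Nprl3, and its part in the Nprl3 level was not tested.

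Sestrins bind GATOR2 when leucine is short and thereby release GATOR1. Sesn1 (chromosome 10, 41809935 to 41908424, plus strand) was at 170, 144 and 67.4 TPM, from 5826, 4603 and 2123 counts, and held 86.4 ± 4.17% of the sestrin TPM. Sesn2, the stress-induced leucine sensor, was at 11.4, 8.29 and 4.12 TPM and Sesn3, a FOXO target in other tissues, at 9.72, 10.1 and 11.1 TPM. Sesn1 exceeded Sesn2 by 3.83 ± 0.12 on the log2 scale, and the log2 ratio of Sesn3 to Sesn1 was -3.40 ± 0.79, while Sesn3 and Sesn2 were not called different (0.43 ± 0.74) and changed order between library 1 and the others. Library 3 was low for Sesn1 and Sesn2, at 43.4% and 42.8% of the mean of the others, but not for Sesn3 (115%). In Sesn1, 92.3 ± 1.27% of TPM fell on the shorter Sesn1-201, whose start lies 77504 bases inside the gene, and 7.67 ± 1.27% on Sesn1-202 at the first start.

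Each AMPK subunit had 1 leading gene, with a second well-expressed gene for the gamma subunit. Prkaa1, the catalytic alpha 1 subunit, was at 36.0, 31.4 and 39.8 TPM and made up 99.97 ± 0.06% of the catalytic genes, since Prkaa2 had 0, 3 and 0 counts. Prkab1, the beta 1 subunit, was at 87.4, 78.1 and 31.3 TPM (94.6 ± 2.78% of the beta genes), and Prkag1, the gamma 1 subunit that binds AMP, at 112, 107 and 105 TPM (78.5 ± 1.19% of the gamma genes, with Prkag2 at 21.5 ± 1.19%, or 29.5 ± 2.13 TPM). Prkag3 had 0 counts throughout, and a count of 0 still permits a level of 0.13 TPM. Prkag1 exceeded Prkaa1 by 1.58 ± 0.18. Prkab1 stood above Prkaa1 in libraries 1 and 2 (1.26 and 1.29) and below it in library 3 (-0.34), so that pair was not called. Prkag1 shares 52.4% of the exonic bases of its leading transcript with B130046B21Rik on the opposite strand, which itself stood at 2.74 ± 0.54 TPM. Stk11, which encodes LKB1, the kinase that activates AMPK, was low at 9.75, 9.83 and 11.0 TPM. Ddit4, which encodes REDD1, a stress-induced protein that restores TSC activity, was at 49.2, 64.5 and 31.2 TPM, highest in library 2 and lowest in library 3, and was not called different from Pik3ip1 (0.59 ± 0.47).

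Set side by side, the 25 activators had a median of 53.9 ± 6.28 TPM and the 21 brakes one of 33.7 ± 2.36 TPM, both above the 25.6 ± 3.29 TPM of protein-coding genes detected in each library. The difference of the medians of log2(TPM + 1) was 0.66 ± 0.09 in favour of the activators. It did not hold up as a property of the groups. It was 0.14 ± 0.10 when Pik3r1, Gsk3b, Ulk1 and Flcn, whose roles fall on both sides, were left out, 0.22 ± 0.36 without the 5 Ragulator genes, and -0.12 ± 0.18 over protein-coding transcripts. No test was made, since genes are not replicates.

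Transcript assignments divided the set. The leading transcript took a median of 61.2 ± 1.38% of a gene's TPM, and 9 genes had 1 transcript above 90%, among them Rraga, Sesn2 and Ddit4 with a single annotated transcript and Phlpp1, Prkaa1 and Lamtor5 with 99.6%, 99.7% and 99.8% on 1 transcript. For 38 genes the leading transcript was protein coding and for 8 it was not: Pik3cb, Rptor and Tsc1 (nonsense-mediated decay), Rictor, Rps6kb1, Rps6kb2 and Nprl3 (retained intron) and Lamtor4 (processed transcript). By share of expected counts 40 of the 46 led with a coding transcript, since Rps6kb2 and Nprl3 then did. Rheb was split between coding Rheb-201 (49.1 ± 4.99% of TPM, 63.4 ± 1.69% of counts) and the 522-base retained intron transcript Rheb-202 (43.0 ± 8.07% of TPM, 15.5 ± 4.92% of counts). These shares are model estimates for overlapping transcripts from short reads, and 16 of the 46 genes had expected counts more than 0.005 from a whole number in some library, which means that some of their reads were divided with other genes.

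**Figure D3:**
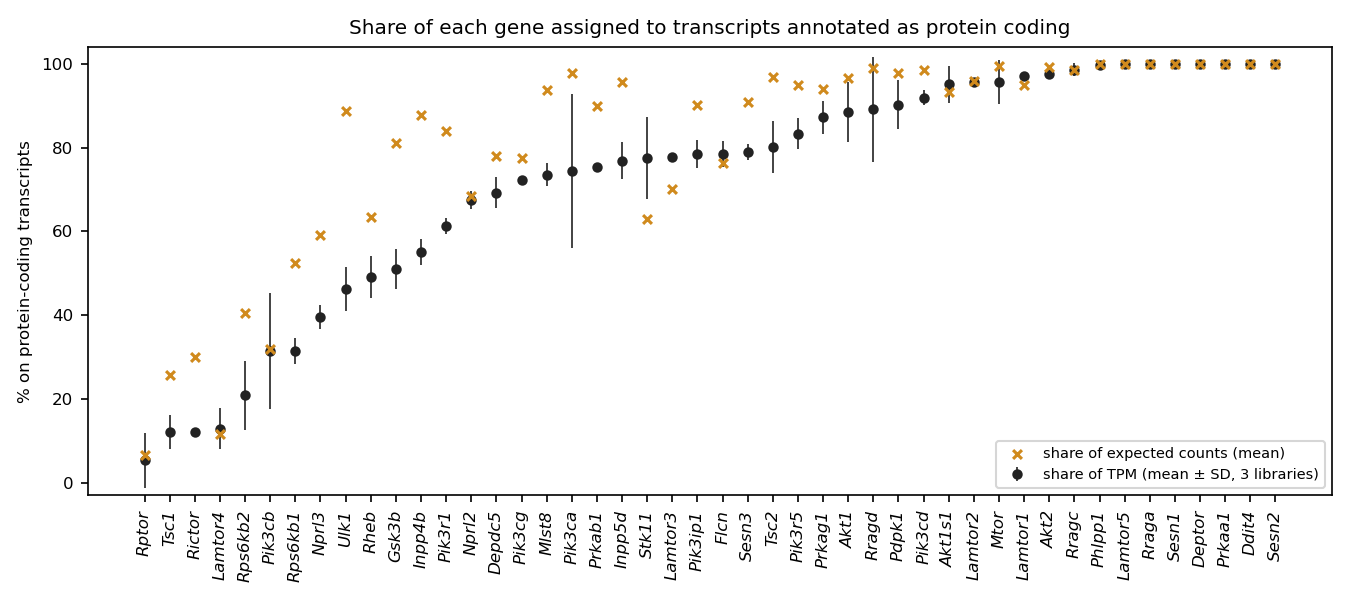
Percent of each gene assigned to transcripts annotated as protein coding, by TPM (black, mean ± SD of 3 libraries) and by expected counts (orange crosses), ordered by the former. Rptor, Tsc1, Rictor and Lamtor4 lie at 5.37% to 12.9% of TPM, and Rraga, Sesn1, Sesn2, Ddit4, Deptor, Prkaa1 and Lamtor5 at 100%.

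The libraries were then compared for each gene to see which levels differed by more than counting. A Pearson chi-square test against Poisson counting was run on the 14877 genes whose mean count reached 10, with edgeR's TMM scaling and Benjamini-Hochberg adjustment over all of them. At an adjusted threshold of 0.05, 40 of the 46 genes differed (87.0%), against 63.9% of all genes tested. The 6 that did not pass were Akt1, Lamtor4, Deptor, Stk11, Prkag1 and Depdc5, with adjusted p from 0.105 to 0.728 by this test. The test is sensitive at high counts, so a call can be small: Pik3cd passed with library 3 at 103% of the mean of the others. The share called also depends on counts. With a mean count of at least 50, 40 of 45 listed genes differed, against 74.9% of all genes tested. The gap between the listed genes and all genes was not adjusted for level. A further limit of 1.5-fold for 1 library against the mean of the others left 15 genes, against 29.2% of all genes tested.

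Of these 15, library 3 was low in 14 and high in 1. The 14 were Rheb, Rraga, Rragc, Rragd, Mtor, Akt2, Pdpk1 and Pik3cb among the activators, and Pik3ip1, Akt1s1, Prkab1, Sesn1, Sesn2 and Ddit4 among the brakes. That is 30.4% of the set, against 20.5% of all genes tested. The gene that was high was Ulk1, at 150% of the mean of the others, in a class with 4.53% of all genes tested. Marker genes also moved in library 3, and genes of the same list did not all move alike. Against the mean of the others, erythroid genes ran from 134% (Hbb-bt) to 147% (Hbb-bs). T cell genes ran from 104% (Lck) to 122% (Cd4), and B cell genes from 97.7% (Ighm) to 166% (Ms4a1). For Treg genes the range was 76.0% (Foxp3) to 102% (Izumo1r), and for macrophage genes 50.8% (Lyz2) to 118% (Adgre1). In libraries 1, 2 and 3 the lists summed to 1389, 1097 and 1750 TPM (erythroid), 1777, 1376 and 1529 TPM (B cell), and 2760, 2229 and 2314 TPM (Treg), and the macrophage list was lowest in library 3, at 33.3 TPM. The part of these shifts in the library 3 result was not tested. Counted without a threshold, library 3 was the lowest of the 3 for 26 of the 46 genes (56.5%) and for 39.4% of all genes tested, with a median log2 deviation of -0.16 against 0.01. The largest negative deviations were those of Akt1s1 (log2 of -1.60), Pik3ip1 (-1.57), Rraga (-1.57), Rragc (-1.43), Prkab1 (-1.38) and Rheb (-1.32), and that of Sesn1 was -1.21. Their adjusted p by the same chi-square test with Benjamini-Hochberg adjustment reached 1.9e-295 for Sesn1 and 3.8e-88 for Rraga. Activators and brakes were both among them, 8 of 25 and 6 of 21.

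A sequence property moved with this deviation. Local GC content had a median of 72% in the 14 low genes (63% to 78%) and of 64.5% in the other 32 (55% to 88%). Across the 46 genes Spearman's rho between local GC and the library 3 deviation was -0.52, and it was -0.54 over the 9305 protein-coding genes whose mean count reached 100. Genes are not independent replicates and share their libraries, so these are descriptions. Removal of a smooth trend on local GC, an alternative chosen after the data were seen, left 34 of the 46 genes differing, against 58.7% of all genes tested. It left 8 of the 14 (17.4% of the set) at least 1.5-fold lower in library 3, against 13.3% of all genes tested: Sesn1, Pik3ip1, Rraga, Akt1s1, Mtor, Prkab1, Akt2 and Rragc. Sesn1 went from -1.21 to -1.01 and Akt2 from -0.59 to -0.66, whereas Rragd went from -0.97 to -0.13 and Pdpk1 from -0.66 to 0.15, and Rheb, at -0.58, came to lie just inside the limit. On the other side 2 genes, Sesn3 and Ulk1, were at least 1.5-fold higher, against 6.82% of all genes tested. Phlpp1, Akt1 and Ulk1 had the highest local GC of the set (84% to 88%) and were not among the 14. The part of local GC content in these deviations beyond this removal was not tested.

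**Figure D4:**
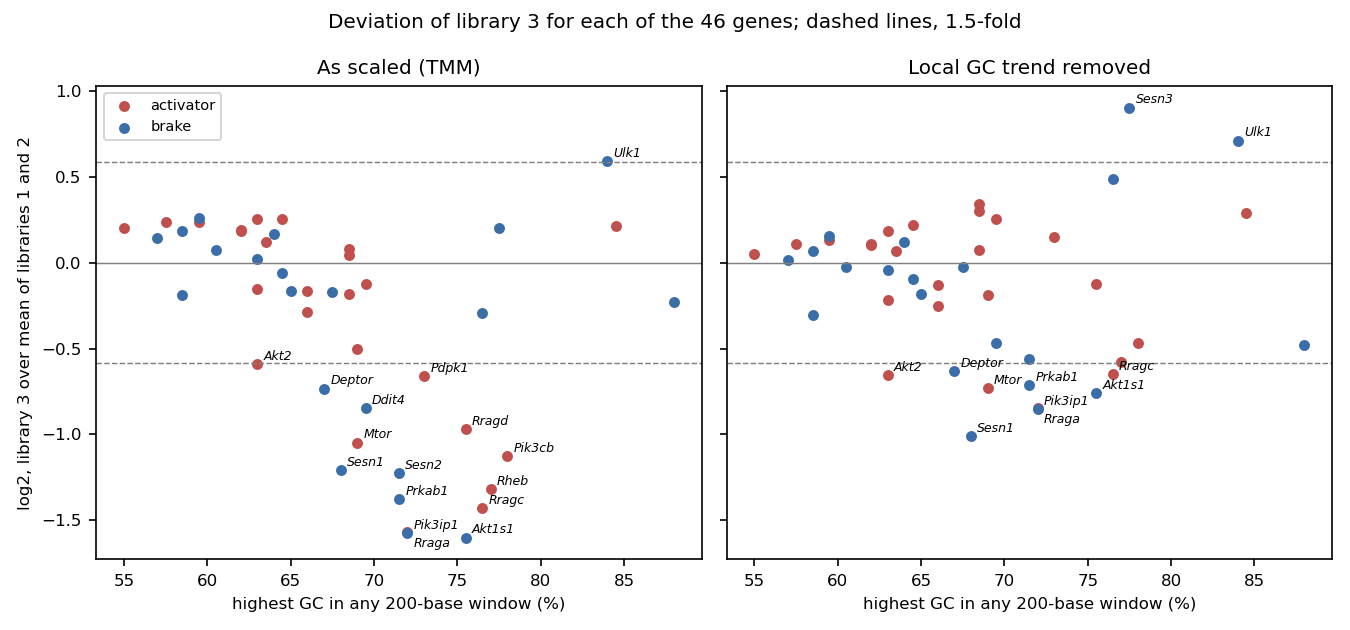
Log2 level of library 3 over the mean of libraries 1 and 2 for the 46 genes (activators red, brakes blue), against the highest GC percent in any 200-base window of the leading transcript, as scaled (left) and after removal of the trend on that measure (right), with dashed lines at 1.5-fold. Genes beyond the lines are named, of which Deptor did not pass the test: 14 called genes lie below on the left and 8 on the right.

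A second gene table of whole-number counts, made on an older annotation, called 15 genes low in library 3, of 45 tested, against 23.4% of all genes tested there, and 13 of the 15 were among the 14. Akt2 was the gene not shared, and the 2 added were Gsk3b and Sesn3. For Sesn3 the tables pointed in opposite directions: the second table held 105, 112 and 50 counts, while the first held 946, 919 and 1011. Gsk3b had 130, 134 and 66 counts in the second table and 574, 587 and 448 in the first. The tables also differ in more than annotation, as some abundant genes had far fewer and flatter counts in the second. Cd3e had 1257, 1262 and 1253 counts there against 23591, 22104 and 24908 in the first. Ighm had 3146, 3126 and 3140 against 35462, 24636 and 27469. The reason was not tested, and calls from the 2 tables are not like for like. Without library 3, 17 of the 46 genes differed between libraries 1 and 2, against 30.2% of all genes, so part of the spread did not rest on library 3.

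Of 59 other genes of the pathway, all were found, 49 reached 1 TPM in each library, and their median was 13.8 ± 4.59 TPM. The 6 highest were Rps6, the ribosomal protein that S6 kinases modify (562 ± 99.1 TPM), Eif4e, the cap-binding factor (194 ± 26.6 TPM), Sec13, a GATOR2 subunit that also serves vesicle coats (160 ± 14.2 TPM), Slc3a2, the heavy chain of amino acid transporters (81.8 ± 37.2 TPM), Atg101 of the ULK complex (66.6 ± 6.48 TPM) and the class II PI3K gene Pik3c2a (64.1 ± 11.9 TPM). The genes under 1 TPM in every library were Pik3r6, Pik3c2b, Phlpp2, Prr5, Prkaa2, Prkag3, Ddit4l and Fnip2. Pik3r6 is the alternative adaptor of the gamma subunit to Pik3r5, Phlpp2 is the relative of Phlpp1, Fnip2 is a partner of Flcn, and Prr5 is a subunit of mTORC2. Of the 53 that had enough counts to test, 43 differed between libraries, against 63.9% of all genes tested. In library 3, 15 were at least 1.5-fold lower, against 20.5%, and 0 at least 1.5-fold higher, against 4.53%. With the local GC trend removed these were 11 and 6, against 13.3% and 6.82%. Slc3a2 was among those 15, at 108, 97.6 and 39.3 TPM.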

How the data were processed

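Expected counts, TPM and FPKM per gene and per transcript were deposited by the authors for every library, quantified against GENCODE M21 on mm10, per the deposited text beside the files, and the transcript table adds each transcript's percent of its gene's TPM, per the file headers. A second table of whole-number counts uses GENCODE M4. The column names are those RSEM writes. The aligner, the counting rules and any use of strand were not given in the sources used here. Effective length was length minus 49 bases. Of 81881 rows, 26345 that are no annotated gene were left out of tests.

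Expected counts were rounded, scaled by TMM (edgeR 4.0.16) and tested on all genes with a mean of at least 10 by Pearson chi-square against Poisson counting, adjusted by Benjamini-Hochberg. The test was also run on simulated Poisson counts scaled by total counts. Those counts follow the model of the test, so they cannot show how it behaves on real libraries. P-values measure spread between libraries that the labels call technical replicates. Pairs used a pseudocount of 1. DESeq2 1.42.0 gave alternative size factors. The GC trend was a lowess curve (statsmodels 0.14.6, fraction 0.3, mean count of at least 100). Named genes are the 46, the 6 highest and the undetected of the other pathway genes, and chosen markers. The genes, lists and tests were chosen with earlier results of these data known. Intervals of 0 counts use 3 counts and cover counting error only.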

Additional observations from a re-analysis of the deposited data

How the results depend on the processing

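The 40 genes that differed became 15 with the added 1.5-fold limit, and 31, 36 and 17 without libraries 1, 2 and 3, while the share of all genes tested was 29.2%, 51.5%, 54.0% and 30.2%. Under other scalings, filters and the second gene table their number was 31 to 42 (30.2% to 74.9% of all genes). The 14 genes low in library 3 were 12 to 15 there (10.5% to 23.4% of all genes), 13 and 14 without libraries 2 and 1 (20.1% and 20.3%), and 8 (13.3%) with the GC trend removed, an alternative added after the data were seen, as was the count itself. The activator over brake difference of 0.66 was 0.52 over genes of at least 1 TPM, 0.14 with genes of both roles left out, 0.14 with Flcn and Pik3r1 counted as brakes, and, in alternatives also added later, 0.22 without Ragulator and -0.12 over coding transcripts. It was 0.62 to 0.70 without each library and 0.60 to 0.67 with FPKM, other pseudocounts or TPM over nuclear protein-coding genes. Detected genes numbered 45 without each library, 45, 40 and 44 at 0.5 TPM, 5 TPM and 1 FPKM. Of 22 pairs 12 to 14 were called in every alternative tried, and none that was called reversed. Prkab1 over Prkaa1 was called without library 3, at 1.27. The median leading share was 71.6% of expected counts, and 60.5 to 61.9% of TPM without each library. No paired analysis was possible because there is 1 group.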
